A study of Arabidopsis thaliana with 13 samples.

Results

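The genes described here are those of the chloroplast genome, taken as every row of the deposited expression table whose gene identifier starts with ATCG. There were 133 such rows of 33560 in all, set beside 33281 nuclear and 146 mitochondrial rows. Cells were sorted from protoplasted roots of Arabidopsis thaliana Col-0 seedlings, 5 days after germination, by the green fluorescence of a reporter. The 4 groups were wox5-1 QC-marker cells (wox5-1 mutant, WOX5::GFP, n = 4), wild-type QC-marker cells (WOX5::GFP, n = 3), wox5-1 CEI-marker cells (wox5-1 mutant, CYCD6::GUS-GFP, n = 3) and wild-type CEI-marker cells (CYCD6::GUS-GFP, n = 3). QC is the quiescent centre, a few cells in the middle of the root stem cell niche that divide rarely, and CEI is the cortex-endodermis initial. WOX5 is the homeobox transcription factor of the quiescent centre, and its own promoter drives the QC reporter, so in the mutant the marker reports the promoter and not the protein.

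The chloroplast genome encodes subunits of the photosystems, the cytochrome complex, the ATP synthase and the NDH complex, the large subunit of Rubisco, part of the plastid ribosome, the core of a bacterial-type RNA polymerase, and ribosomal and transfer RNAs. It is transcribed by that polymerase and by nuclear-encoded phage-type polymerases, often as long transcripts that cover several neighbouring genes. Root plastids are non-green but keep and transcribe the same genome. Plastid transcripts lack the stable poly(A) tails of nuclear mRNAs, and the sources used here do not say how the cDNA of these libraries was primed. Short genes reach a high FPKM (fragments scaled by transcript length in kilobases and by the mapped fragments of the library) from few fragments. The identifiers are printed as deposited, because RefSeq (assembly TAIR10.1) lists none of them as a locus tag. A product was named for 6 of them in RefSeq notes on nuclear relatives, without a second source to check it. These are ATCG00430 (noted as photosystem II reaction center protein G), ATCG00530 (noted as a CemA-like proton extrusion protein), ATCG00660, ATCG00750 and ATCG01310 (ribosomal proteins L20, S11 and L2) and ATCG00670 (the plastid-encoded ClpP, a protease subunit).

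The labels held for WOX5 in QC-marker cells. WOX5 had 0, 0.114, 0.0785 and 0.0528 FPKM in the wox5-1 libraries, against 255, 262 and 163 FPKM in the wild type. CYCD6;1, the cyclin whose promoter drives the CEI reporter, had 4.33, 5.47 and 0.748 FPKM in wox5-1 CEI-marker cells and 1.90, 22.7 and 7.55 FPKM in wild-type CEI-marker cells, and so was low in 2 of these 6 libraries. It had 4.56 to 5.75 FPKM in wox5-1 QC-marker cells and 0 to 2.07 FPKM in wild-type QC-marker cells, so within the mutant this marker was not higher in the CEI-marker population. Estimated from the steps of the FPKM values, the depth of QC-marker cells was 23.9 to 37.4 M fragments (M, mega) for wox5-1 and 5.28 to 7.31 M for the wild type. Depth of CEI-marker cells was 17.9 to 27.5 M for wox5-1 and 18.7 to 30.5 M for the wild type. The wild-type QC-marker group was therefore the shallowest by this estimate, and its library 2 listed 19783 rows at 0, against 5385 to 12971 in the other 12. CEI-marker wox5-1 library 1 stood apart in genes of green tissue: the 8 markers of green tissue (small subunits of Rubisco and light-harvesting proteins, all nuclear) summed to 13528 FPKM there, against 0 to 47.3 FPKM in the other 12 libraries. The 4 root cap markers were highest in wild-type CEI-marker library 4, at a sum of 2358 FPKM, and reached 977 and 619 FPKM in wild-type QC-marker libraries 2 and 3, against 9.04 to 251 FPKM in the other 10 libraries.

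Chloroplast transcripts made up a small share of each library, and the share was lowest in wox5-1 QC-marker cells. It was 0.566%, 0.142%, 0.179% and 0.453% of the summed FPKM in wox5-1 QC-marker cells, against 1.83%, 0.336% and 1.89% in wild-type QC-marker cells. The groups overlapped only through wild-type library 2. In CEI-marker cells the share was 3.38%, 2.56% and 1.75% in wox5-1 and 1.98%, 0.869% and 1.1% in the wild type, with wox5-1 library 4 below wild-type library 1. The group means were 0.335% ± 0.207 (SD, n = 4) in wox5-1 QC-marker cells, 1.35% ± 0.879 (n = 3) in wild-type QC-marker cells, 2.56% ± 0.817 (n = 3) in wox5-1 CEI-marker cells and 1.32% ± 0.589 (n = 3) in wild-type CEI-marker cells. The 4 wox5-1 QC-marker libraries all lay below the 3 wox5-1 CEI-marker libraries. The means are sums over the genes and were not tested. In bulk samples, fewer cells of a type and less RNA per cell cannot be told apart.

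**Figure D1:**
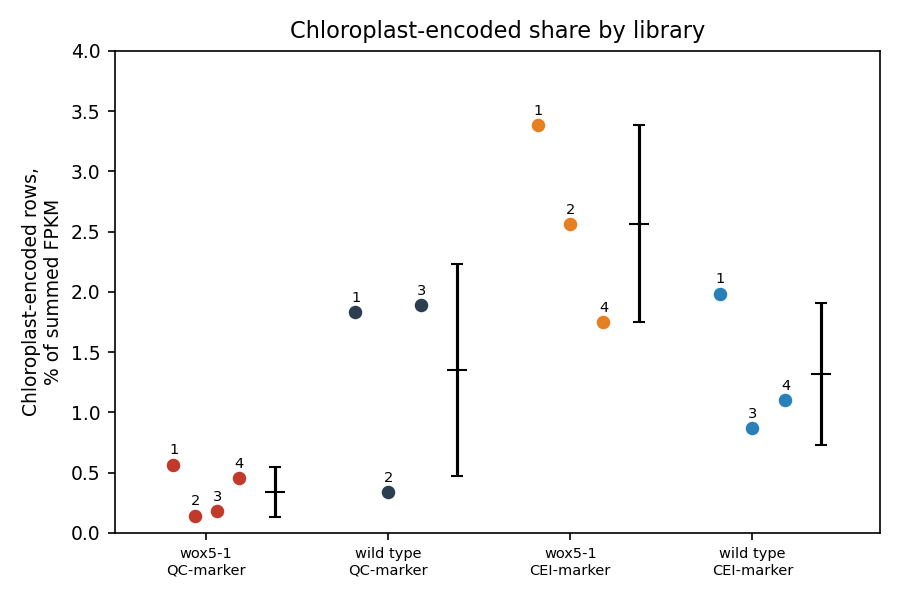
Share of the summed FPKM that came from chloroplast-encoded genes (y axis, percent) in each of the 13 libraries (points, with the library number), with the mean and SD of each group as a black bar. The wox5-1 QC-marker libraries lie between 0.142% and 0.566%, and the wox5-1 CEI-marker libraries between 1.75% and 3.38%.

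Mitochondrial transcripts, the other organellar set, took 0.392% to 0.552% in wox5-1 QC-marker cells and 0.696% to 1.86% in wild-type QC-marker cells, so they were also lower in the mutant there and the ranges did not overlap. In CEI-marker cells the mitochondrial share was 0.407% to 2.02% in wox5-1 and 0.383% to 2.80% in the wild type. The chloroplast share of wox5-1 CEI-marker library 4 was 1.75% beside a mitochondrial share of 0.407%, whereas both shares were high in library 1, at 3.38% and 2.02%.

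Which genes were seen at all divided the genome into blocks. Of the 133 genes, 98 were above 0 in at least 1 library and 41 in all 13, while 35 were at 0 throughout. A further measure of breadth was the number above 0 in a library, which was 69 to 83 in wox5-1 QC-marker cells, 44 to 83 in wild-type QC-marker cells, 84 to 88 in wox5-1 CEI-marker cells and 79 to 87 in wild-type CEI-marker cells. The lowest count, 44, belonged to wild-type QC-marker library 2, in which 25 genes were at 0 that were above 0 in each of the other 12. Of the 45 genes that never reached 1 FPKM, 37 sat in 2 runs of consecutive identifiers. The 19 identifiers ATCG00830 to ATCG01000 had a highest value of 0.874 FPKM, with 12 at 0 in all libraries. The 18 identifiers ATCG01140 to ATCG01310, which end in the gene for ribosomal protein L2, had a highest value of 0.691 FPKM, with 15 at 0 in all libraries. Identifiers run in order along the molecule, and the chloroplast genome carries an inverted repeat, a stretch present in 2 copies; RefSeq lists 7 protein-coding symbols at 2 chloroplast loci. An exact 0 in a table of this kind can also be a failed estimate or reads that match in 2 places, whose treatment the sources used here do not state, so these genes are reported only as listed at or near 0.

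**Figure D2:**
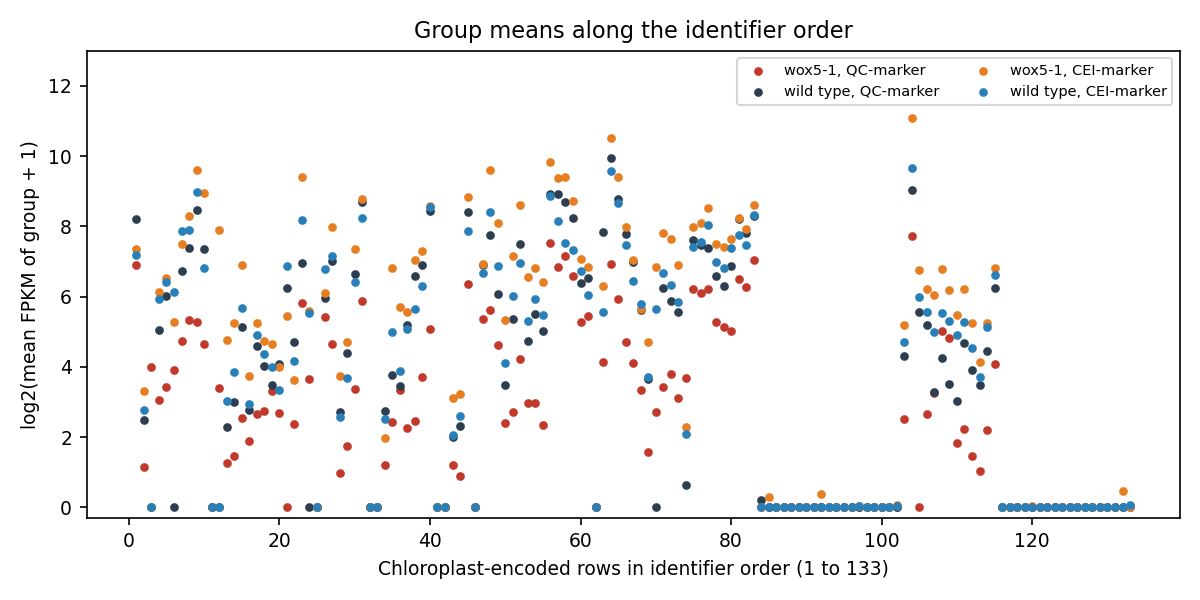
Mean FPKM of each group on a log2(mean FPKM + 1) scale (y axis) for the 133 chloroplast-encoded genes in the order of their identifiers (x axis). Both low runs, of 19 and 18 genes, lie near 0 in every group, and elsewhere most wox5-1 QC-marker points lie below the others.

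Among the genes that were seen, levels spanned a wide range. The highest mean over the 13 libraries was that of ATCG01020, at 875 FPKM, followed by ATCG00630 at 778 FPKM and ATCG00550 at 485 FPKM. ATCG00080 came next at 390 FPKM, then ATCG00640 at 370 FPKM and ATCG00560 at 364 FPKM. ATCG01020 took the largest part of the chloroplast sum in 5 libraries and ATCG00630 in 5. The remaining 3 were led by ATCG00550 (wox5-1 QC-marker library 1), ATCG00010 (wox5-1 QC-marker library 4) and ATCG00800 (wild-type QC-marker library 2). The 10 highest genes of a library held 45.5% to 66.2% of its chloroplast sum in wox5-1 QC-marker cells, 45.9% to 70.4% in wild-type QC-marker cells, 42.9% to 55.7% in wox5-1 CEI-marker cells and 44.8% to 46.5% in wild-type CEI-marker cells. ATCG01020 itself varied between libraries of 1 group: it held 4.61%, 16.8%, 16.8% and 5.68% of the chloroplast sum in the 4 wox5-1 QC-marker libraries, high in those 2 whose chloroplast share was low. Its level was steadier, at 206, 180, 245 and 215 FPKM in those libraries, against 701, 220 and 636 FPKM in the wild type.

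Some genes were at 0 in many libraries and high in others. Of the 133, 10 were at 0 in at least 6 libraries and yet reached at least 30 FPKM in another. ATCG00030 had 59.5 FPKM in wox5-1 QC-marker library 3 and 0 in the other 12. ATCG00110 had 220 and 498 FPKM in wox5-1 CEI-marker libraries 1 and 2 and 37.9 FPKM in wox5-1 QC-marker library 4, and 0 elsewhere. ATCG00010, which led the sum of wox5-1 QC-marker library 4, had 148, 0, 52.3 and 278 FPKM in wox5-1 QC-marker cells, against 185, 212 and 484 FPKM in the wild type, and in CEI-marker cells it had 492, 0 and 0 FPKM in wox5-1, against 431, 0 and 0 FPKM in the wild type. In both genotypes of CEI-marker cells ATCG00010 was thus above 0 in library 1 alone.

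The effect of wox5-1 in QC-marker cells was tested on log2(FPKM + 1) with limma, over all 21574 genes with at least 1 FPKM in at least 3 libraries. Of the 133 chloroplast genes 87 passed that filter, and 11 of the rest were above 0 somewhere. The fit shared its estimate of spread among the 4 groups, although their spreads were unequal. The median SD of the chloroplast genes was 2.01 in wild-type QC-marker and 0.97 in wox5-1 QC-marker cells. It was 0.66 in wox5-1 and 0.88 in wild-type CEI-marker cells. The SE and adjusted p values therefore do not measure the spread of the compared groups alone. At an adjusted p under 0.05 (Benjamini-Hochberg over all genes tested), 11 of the 87 fell in wox5-1 and 0 rose. Over all genes tested 3.43% were called, with 3.05% higher and 0.38% lower. The median difference of the 87 genes was -1.28, with 75 of them negative, against a median of 0.32 over all genes tested. At an unadjusted p under 0.05 there were 22 of the 87, 21 of them lower, beside a background of 19.7% in either direction. In 15 of the 87 every wox5-1 library was below every wild-type library, and in 0 above. The corresponding background was 5.82% below and 17.8% above.

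The gene with the smallest adjusted p was ATCG00360. It had 6.43, 1.77, 2.42 and 4.43 FPKM in wox5-1 QC-marker cells, against 31.1, 46.9 and 28.4 FPKM in the wild type. The groups stood well apart, wild-type library 2 included, with a difference of -3.01 ± 0.43 on the log2(FPKM + 1) scale (SE; limma, adjusted p = 0.0032). ATCG00500 had 7.23, 2.40, 5.37 and 7.11 FPKM in wox5-1 QC-marker cells, against 57.1, 21 and 42.1 FPKM in the wild type. This was a fall of 2.63 ± 0.52 (limma, adjusted p = 0.017), again without overlap. For ATCG00380 the values were 22.5, 3.80, 3.09 and 18.9 FPKM in wox5-1 and 163, 38.6 and 151 FPKM in the wild type (difference -3.35 ± 0.67, limma, adjusted p = 0.018). Its mutant values split into libraries 1 and 4, which were higher, and libraries 2 and 3. The chloroplast share of the 4 libraries split in the same way.

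**Figure D3:**
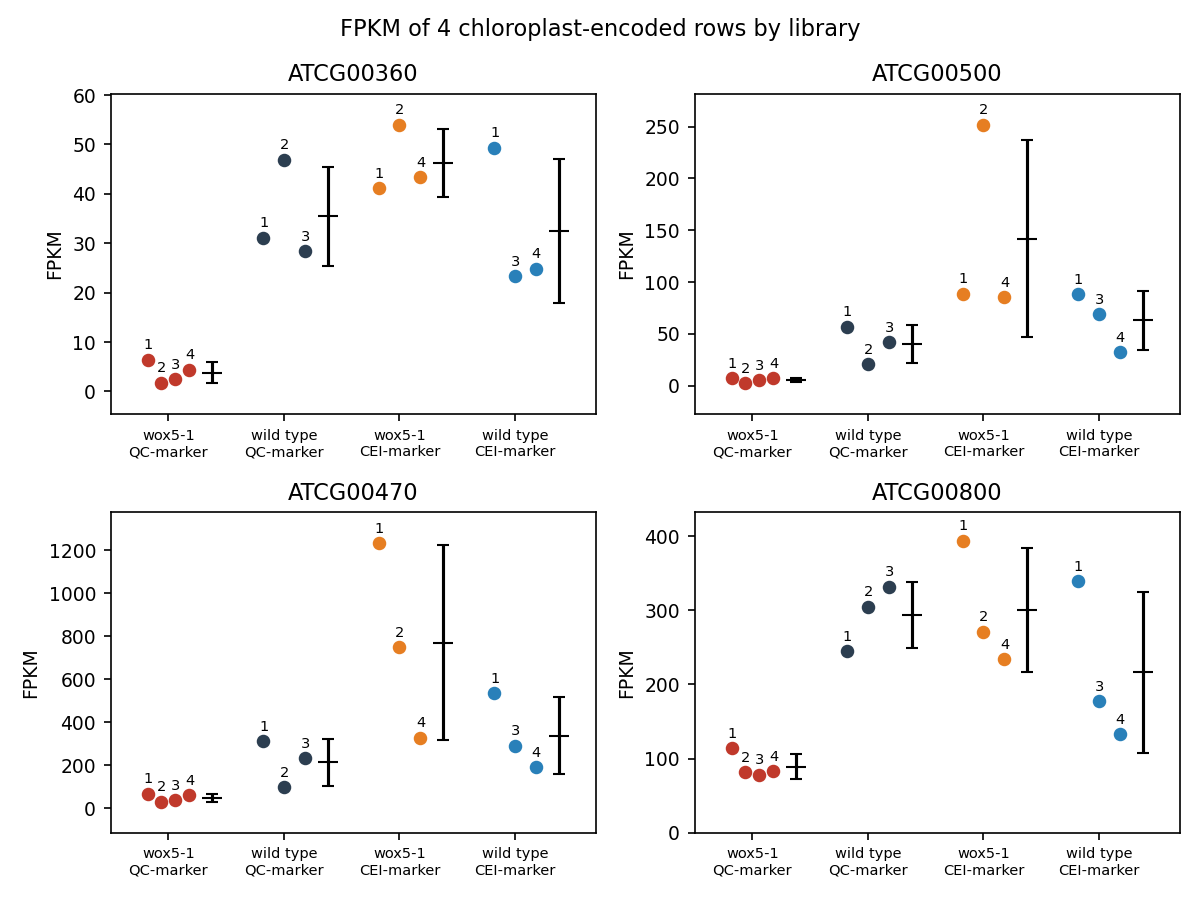
FPKM (y axis, linear) of 4 chloroplast-encoded genes in each of the 13 libraries (points, with the library number), with the mean and SD of each group as a black bar. In ATCG00360, ATCG00500, ATCG00470 and ATCG00800 all wox5-1 QC-marker libraries lie below all wild-type QC-marker and all wox5-1 CEI-marker libraries.

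ATCG00660, the gene for ribosomal protein L20, also fell in wox5-1 QC-marker cells. It had 30.6, 3.03, 6.10 and 25.8 FPKM in wox5-1, against 119, 42.8 and 216 FPKM in the wild type, a difference of -3.07 ± 0.73 (limma, adjusted p = 0.036). ATCG00750, for ribosomal protein S11, had 113, 24.0, 32.6 and 101 FPKM in wox5-1 and 106, 61.4 and 359 FPKM in the wild type. These groups overlapped, and the gene was not called. ATCG00670, for ClpP, had 15.7, 3.17, 5.77 and 12.3 FPKM in wox5-1 and 53.1, 9.67 and 81.4 FPKM in the wild type, and here only wild-type library 2 fell among the mutant values (difference -2.03 ± 0.67, limma, adjusted p = 0.11). ATCG00530, the CemA-like gene, had 8.99, 4.75, 4.61 and 8.96 FPKM in wox5-1, against 103, 0.345 and 29.6 FPKM in the wild type. ATCG00430 had 1.69, 0.307, 0.501 and 0.945 FPKM in wox5-1, against 10.5, 0 and 1.52 FPKM in the wild type. For both, wild-type library 2 was the lowest of the 7 values and libraries 1 and 3 differed from each other several-fold, so the wild-type spread covered the mutant values.

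The neighbours ATCG00790, ATCG00800 and ATCG00810 were all called. ATCG00790 had 48.7, 18.4, 20.3 and 38.9 FPKM in wox5-1, against 105, 80.4 and 162 FPKM in the wild type, a difference of -1.90 ± 0.43 (limma, adjusted p = 0.028). ATCG00800 had 114, 81.7, 78.3 and 83.4 FPKM in wox5-1 and 245, 305 and 332 FPKM in the wild type, the smallest but 1 of the 11 falls at -1.71 ± 0.35 (limma, adjusted p = 0.018). ATCG00810 had 96.6, 67.4, 72.7 and 66.1 FPKM in wox5-1 and 200, 193 and 284 FPKM in the wild type, a difference of -1.56 ± 0.35 (limma, adjusted p = 0.028). In wild-type library 2, where 25 chloroplast genes were at 0 alone, this pair stayed close to the other wild-type libraries. The widest fall was that of ATCG00390, with 96.2, 0, 0 and 34.1 FPKM in wox5-1 and 185, 211 and 635 FPKM in the wild type. Its difference of -5.26 ± 1.29 (limma, adjusted p = 0.040) rests in part on the 2 libraries listed at 0. The other 3 called genes were ATCG00080, ATCG00510 and ATCG00470, with differences of -3.44, -3.80 and -2.05.

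Of the 16 genes picked by identifier whatever their values, 1 was called in this comparison, ATCG00500. ATCG00020 stayed low, with 2.08, 0.235, 0.451 and 2.15 FPKM in wox5-1 and 8.02, 0.352 and 5.30 FPKM in the wild type, and ranked number 84 by mean. ATCG00490 had 7.05, 2.94, 2.31 and 4.99 FPKM in wox5-1, against 10.7, 0.131 and 19.97 FPKM in the wild type. ATCG00340 had 6.46, 3.25, 3.14 and 4.86 FPKM in wox5-1, against 19.4, 0.157 and 18.3 FPKM in the wild type. In these 3 genes wild-type library 2 lay below or among the mutant values and the other 2 wild-type libraries above them, and none was called. ATCG01130 had 21.2, 11.1, 15.1 and 16.4 FPKM in wox5-1 and 114, 22.9 and 87 FPKM in the wild type; its groups did not overlap, and it was not called at -1.91 ± 0.56 (limma, adjusted p = 0.078). ATCG00350, ATCG00190 and ATCG00040 differed by 0.60, -1.28 and -1.59 with overlapping groups. ATCG00670 is given above. Of the others, ATCG00860, ATCG00920, ATCG00950, ATCG01000, ATCG01180, ATCG01210 and ATCG01280 lay in the low runs and were not tested.

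The count of 11 depended on single libraries. Leaving out wild-type QC-marker library 2, which had the most rows at 0, raised it to 34, all lower in wox5-1, while 3% of all genes tested were called. Leaving out 1 other QC-marker library at a time lowered it to between 2 and 7, which is 2 without wox5-1 library 2 or 3, 3 without wild-type library 3, 4 without wox5-1 library 4, and 7 without library 1 of either genotype. Calls over all genes tested moved as well. They were 0.934%, 1.15%, 0.944% and 0.927% without wox5-1 library 1, 2, 3 and 4, and 7.08% and 3.2% without wild-type library 1 and 3, so the lower counts without a wox5-1 library came with fewer calls in the whole table. A fit of the 7 QC-marker libraries alone called 5, and 3.82% of all genes tested. ATCG00360 was the 1 gene called whichever of the 13 libraries was left out. The gene that went most against the rest was ATCG00730, with 28.4, 1.26, 1.56 and 15.9 FPKM in wox5-1 and 1.64, 0 and 0 FPKM in the wild type. Its difference was 2.40 ± 0.83 (limma, adjusted p = 0.13), and it was the largest of the 12 positive ones.

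In CEI-marker cells most differences between wox5-1 and the wild type were positive, and no chloroplast gene was called. Of the 87 genes 81 had a positive difference, with a median of 0.86, against 0.08 over all genes tested. At an adjusted p under 0.05 limma called 0 of the 87 and 0.0278% of all genes tested, and 3 of the 87 had an unadjusted p under 0.05, where the background was 8.04%. In 16 of the 87 every wox5-1 library was above every wild-type library and in 0 below, beside 7.19% of all genes above and 3.81% below. ATCG00570 had 788, 665 and 569 FPKM in wox5-1 CEI-marker cells, against 174, 133 and 245 FPKM in the wild type. It had the largest separation relative to its spread among genes above 0 in all libraries, at 1.90 ± 0.69 (95% interval 0.42 to 3.38; limma, adjusted p = 0.56). ATCG00500 had 88.6, 252 and 85.5 FPKM in wox5-1 and 88.3, 68.8 and 32.5 FPKM in the wild type, with an interval of -0.10 to 2.26. ATCG00670 (ClpP) had 48.5, 46.1 and 53.0 FPKM in wox5-1, between the 27.5 and 101 FPKM that bounded the wild type. These intervals reach past a doubling, so the absence of calls does not show that the levels were alike. The library rich in green-tissue markers, wox5-1 library 1, had the highest value of all 13 in 43 of the 87 genes. Without that library 85 genes passed the filter, 76 of them were positive with a median of 0.63, 1 had an unadjusted p under 0.05, and limma called 0, as it did when wild-type QC-marker library 2 was left out as well.

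**Figure D4:**
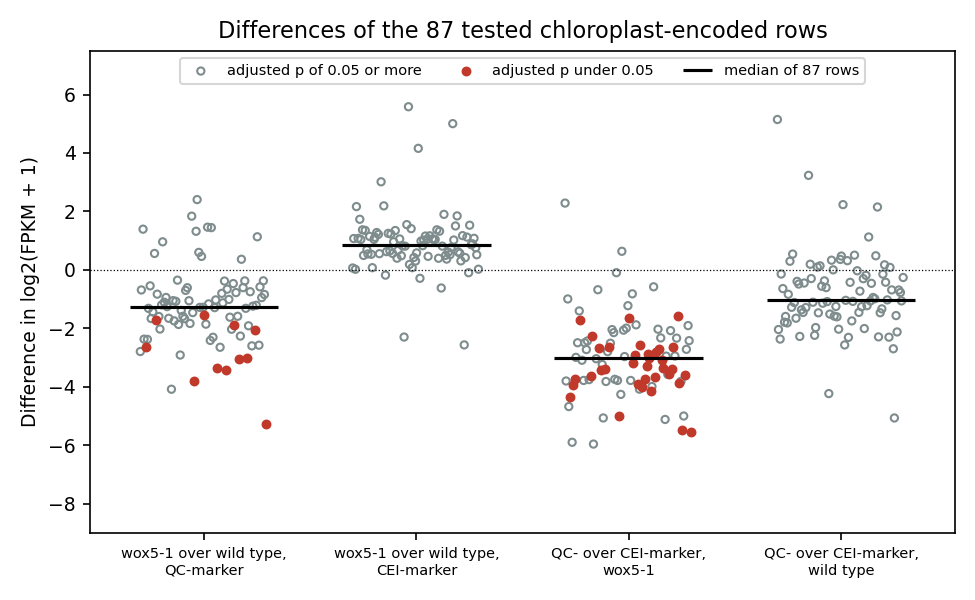
Differences in log2(FPKM + 1) (y axis) of the 87 tested chloroplast-encoded genes in 4 comparisons, with genes at an adjusted p under 0.05 (limma, Benjamini-Hochberg over all genes tested) filled and the median of the 87 as a line. The medians are -1.28, 0.86, -3.02 and -1.03 from left to right, and called genes appear in both QC-marker comparisons that include wox5-1, all of them negative.

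The widest contrast was between the populations within the mutant. Of the 87 genes, 35 were lower in wox5-1 QC-marker than in wox5-1 CEI-marker cells at an adjusted p under 0.05 and 0 were higher. Over all genes tested 4.31% were called, with 2.64% higher and 1.67% lower. The median difference was -3.02, with 85 of 87 negative, against a median of 0.30 over all genes tested. In 69 of the 87 no wox5-1 QC-marker library reached the lowest wox5-1 CEI-marker library, where 9.72% of all genes did the same, and in 0 the reverse held, beside 26.5% of all genes. ATCG00500 had 7.23, 2.40, 5.37 and 7.11 FPKM in wox5-1 QC-marker cells, against 88.6, 252 and 85.5 FPKM in wox5-1 CEI-marker cells, a difference of -4.34 ± 0.52 (limma, adjusted p = 0.0010). For ATCG00360 the CEI-marker values were 41.2, 54.0 and 43.4 FPKM, and the difference was -3.41 ± 0.43 (limma, adjusted p = 0.0011). ATCG00470 had 65.9, 29.2, 36.1 and 60.6 FPKM in wox5-1 QC-marker cells, against 1233, 750 and 327 FPKM in wox5-1 CEI-marker cells (difference -3.86 ± 0.53, limma, adjusted p = 0.0017). In each of these 3 genes every CEI-marker library, and not library 1 alone, lay above every QC-marker library.

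The annotated genes followed the same direction in that contrast. ATCG00660 (ribosomal protein L20) had 134, 89.7 and 167 FPKM in wox5-1 CEI-marker cells, far above its QC-marker values given above, and differed by -3.35 ± 0.73 (limma, adjusted p = 0.021). ATCG00750 (ribosomal protein S11) had 253, 232 and 328 FPKM there and differed by -2.26 ± 0.60 (limma, adjusted p = 0.048). ATCG00670 (ClpP) missed the threshold at -2.49 ± 0.67 (limma, adjusted p = 0.051), as did ATCG00530 (CemA-like) at -3.76 ± 1.1 and ATCG00430 at -2.33 ± 0.70, although none of the 3 overlapped between the groups. ATCG01310 (ribosomal protein L2) lay in the low run and was not tested. The 9 other genes among the 12 with the smallest adjusted p had differences between -5.47 (ATCG00690) and -1.72 (ATCG00800), and the 23 called beyond those 12 ranged from -5.54 to -1.58. ATCG00690 had 0, 0, 0 and 22.1 FPKM in wox5-1 QC-marker cells, against 167, 137 and 38.3 FPKM in wox5-1 CEI-marker cells. ATCG00510 had 28.6, 0, 20.9 and 21.1 FPKM in QC-marker cells, against 514, 457 and 187 FPKM in CEI-marker cells of the mutant. ATCG00080, number 4 by mean level, had 40.6, 16.5, 11.3 and 84.1 FPKM in QC-marker cells, against 1729, 196 and 416 FPKM in CEI-marker cells of the mutant. For ATCG00080 CEI-marker library 1 stood far above the other 2, while for ATCG00690 and ATCG00510 libraries 1 and 2 were close. ATCG00730 was 1 of the 2 genes with a positive difference, at 0.64 ± 0.83, and the other was ATCG00010.

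This count moved with the libraries too. It was 8 to 22 when 1 wox5-1 library was left out: 8, 17 and 17 without CEI-marker library 2, 1 and 4, and 22, 9, 11 and 22 without QC-marker library 1, 2, 3 and 4. It was 68 without wild-type QC-marker library 2, which is not in the contrast but enters the shared estimate of the spread, and 60 of 85 without that library and CEI-marker library 1 together. A fit of the 7 wox5-1 libraries alone called 71, and 24.6% of all genes tested. Of all genes tested, 11.7% were called once wild-type QC-marker library 2 was left out, and 17.4% once CEI-marker library 1 was left out too. The share was 6.15%, 1.06% and 1.18% without CEI-marker library 1, 2 and 4, and 1.51%, 1.06%, 1.15% and 2.35% without QC-marker library 1, 2, 3 and 4. The 7 genes called whichever library was left out were ATCG00360, ATCG00380, ATCG00470, ATCG00480, ATCG00500, ATCG00790 and ATCG01010. In each of these settings every called chloroplast gene was lower in QC-marker cells.

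In the wild type no chloroplast gene passed the threshold between the populations. Limma called 0 of the 87 and 0.357% of all genes tested, and 3 of the 87 had an unadjusted p under 0.05 beside a background of 12.1%. The median difference was -1.03, with 68 of 87 negative. It was 0.27, with 60 of 87 positive, when wild-type QC-marker library 2 was left out, so the direction rested on that library. The smallest adjusted p was 0.071, for ATCG00690, which had 0 FPKM in all 3 wild-type QC-marker libraries, against 113, 17.2 and 17.3 FPKM in wild-type CEI-marker cells. In 2 of the 87 genes, ATCG00690 and ATCG00730, every QC-marker library was below every CEI-marker library, beside 4.07% of all genes.

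Whether wox5-1 acted differently in both populations was tested as the difference of its effects, QC-marker minus CEI-marker. Limma called 0 of the 87 chloroplast genes and 0.0232% of all genes tested. Of the 87, 25 had an unadjusted p under 0.05, all of them negative, beside a background of 11.1%, and the median was -2.14, with 81 negative, against 0.32 over all genes tested. ATCG00360 had the smallest adjusted p, with a difference of effects of -3.58 ± 0.63 (limma, adjusted p = 0.074). ATCG00500 followed with -3.70 ± 0.75 (limma, adjusted p = 0.12). Without wild-type QC-marker library 2, 2 genes passed the threshold, beside 0.149% of all genes tested, and without it and CEI-marker wox5-1 library 1, 6 of 85 did, beside 1.48%.

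Part of these differences was shared by the whole chloroplast set, so the genes were also compared within it, with the chloroplast rows of every library scaled to the same sum. Scaling turned the sign of 47 of the 75 negative differences in QC-marker cells, leaving 59 of the 87 positive with a median of 0.60. Of the 85 negative differences between populations in wox5-1, 28 turned, with a median of -0.45 after scaling. In CEI-marker cells 36 of the 81 positive differences turned (median 0.01), and of the differences of effects 54 of the 81 negative ones turned (median 0.58). In QC-marker cells 5 of the 87 were then called, 4 higher and 1 lower in wox5-1, where 3.32% of all genes tested were called, 3% higher and 0.32% lower. ATCG00730 held 0.635%, 0.118%, 0.107% and 0.419% of the chloroplast sum in wox5-1, against 0.0112%, 0% and 0% in the wild type (difference 4.32 ± 0.73, limma, adjusted p = 0.0078). ATCG01070 held 1.28%, 0.301%, 0.580% and 1.04% in wox5-1 and 0.135%, 0% and 0.0840% in the wild type (3.79 ± 0.75, limma, adjusted p = 0.017). ATCG00350 and ATCG00180 were higher by 2.92 and 2.90, with 0 in wild-type library 2 for both. ATCG00380 was the 1 gene lower within the set: it held 0.503%, 0.354%, 0.211% and 0.498% in wox5-1, against 1.12%, 1.37% and 1.07% in the wild type (-1.64 ± 0.39, limma, adjusted p = 0.034). Between the populations in wox5-1, 1 gene was called after this scaling, ATCG00730 at 3.0 ± 0.73 (limma, adjusted p = 0.034), in place of the 35 lower ones, where 4.09% of all genes were called. Without wild-type QC-marker library 2, the scaled fit called 2 of the 5 genes in QC-marker cells, ATCG00730 at 4.14 and ATCG01070 at 2.60, while ATCG00350, ATCG00180 and ATCG00380 missed the threshold at 1.77, 1.72 and -1.54, and 2.69% of all genes were called. Between populations in wox5-1 it called 9 of the 87, among them ATCG00730 and ATCG00180 higher, beside 11.3% of all genes. ATCG00360, the firmest call before scaling, differed by -1.45 in QC-marker cells after it and was not called.

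Genes next to each other in the identifier order were on the median more alike within the chloroplast sum than other pairs, with wide variation. Over the 13 libraries, the median Pearson r of the scaled log2 values was 0.53 for the 78 pairs of adjacent tested genes, 0.35 for the 74 pairs 2 places apart and 0.30 for the 73 pairs 3 places apart, against 0.17 for all 3741 pairs. In 13 adjacent pairs r was at least 0.9, as it was in 58 of the 3663 other pairs. In 11 adjacent pairs r was negative, down to -0.874 for ATCG00350 and ATCG00360 and -0.585 for ATCG00210 and ATCG00220. For 25 of the 87 genes the gene with the highest r was an adjacent one. ATCG00800 and ATCG00810 had r = 0.987, ATCG00710 and ATCG00720 r = 0.975, ATCG00130 and ATCG00140 r = 0.967, and ATCG01060 and ATCG01070 r = 0.965. Among all 87 genes the CemA-like ATCG00530 had its highest r with its neighbour ATCG00520, at 0.963. The values of a pair come from the same libraries, with their depth and zeros in common, and fragments of overlapping transcripts may be assigned to either gene, so these coefficients are descriptions. Without the scaling the median r of all pairs was 0.75.

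**Figure D5:**
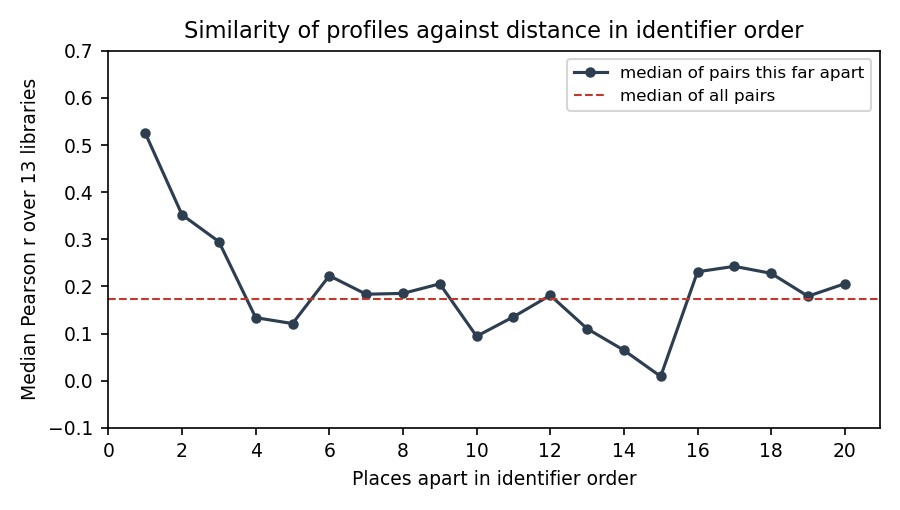
Median Pearson r over the 13 libraries (y axis) of pairs of tested chloroplast-encoded genes, against the number of places between them in identifier order (x axis, 1 to 20), from log2 values with the chloroplast rows scaled to the same sum. The median is 0.53 for adjacent genes, 0.35 at 2 places and 0.30 at 3 places, beside 0.17 for all pairs (dashed line).

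Nuclear genes for the photosynthetic apparatus and for plastid transcription were set beside the chloroplast genes. Of 30 listed nuclear photosynthesis genes 26 were tested, and limma called 0 in wox5-1 against wild-type QC-marker cells, with a median difference of 0.41. There 1 had an unadjusted p under 0.05, beside a background of 19.7%. This was GLK2, which went against the median at -2.01 ± 0.56 (limma, adjusted p = 0.065), with every wox5-1 library below every wild-type library. In CEI-marker cells 0 of the 26 were called in wox5-1 against the wild type, with a median of 2.86 and 15 at an unadjusted p under 0.05, beside a background of 8.04%. Between QC-marker and CEI-marker cells in wox5-1, 1 of the 26 was called, where 4.31% of all genes tested were called. It was RBCS1A (a small subunit of Rubisco), lower at -6.25 ± 1.62 (limma, adjusted p = 0.043). The median of the 26 was -2.83 there, with 16 at an unadjusted p under 0.05, beside 4519 of the 21574 genes tested. Without CEI-marker wox5-1 library 1, 22 of the list were tested. The median between populations in wox5-1 was then -0.56, with 6 at an unadjusted p under 0.05. RBCS1A was called at -3.16 ± 0.57 (limma, adjusted p = 0.013), where 6.15% of all genes tested were called. For wox5-1 against wild-type CEI-marker cells the median was 0.57, with 5 at an unadjusted p under 0.05. The share of all genes at that unadjusted threshold without library 1 is not given here. RBCS1A had 0, 0.0389, 0 and 0.417 FPKM in wox5-1 QC-marker cells, against 6006, 3.68 and 19.7 FPKM in wox5-1 CEI-marker cells. The list summed to 20648 FPKM in CEI-marker library 1 and to 48.1 to 153 FPKM in the other 12 libraries. The 20 listed nuclear genes of plastid transcription (the phage-type polymerases, sigma factors and polymerase-associated proteins) were all tested and 0 were called in any of the 5 comparisons. In wox5-1 against wild-type QC-marker cells 3 of the 20 had an unadjusted p under 0.05, beside a background of 19.7%, with a median of 0.79. RPOTp, the plastid phage-type polymerase, had the smallest p of the list there, with a difference of 1.77 ± 0.59 (limma, adjusted p = 0.11). Every wox5-1 library was above every wild-type library for RPOTp, as for 17.8% of all genes tested. RPOTmp, the polymerase shared by mitochondria and plastids, differed by 1.63 ± 0.68 with overlapping groups (limma, adjusted p = 0.20). The root hair markers SHV2 and EXPA7 summed to 286 to 465 FPKM in wox5-1 QC-marker cells, against 11, 248 and 329 FPKM in the wild type. EXPA7 differed by 3.27 ± 0.96 (limma, adjusted p = 0.078). Without wild-type QC-marker library 2, 1 of both markers was called, where 3% of all genes tested were called. The part of green-tissue, root cap, root hair and mitochondrial RNA in the chloroplast results was not tested.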

How the data were processed

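The authors deposited 1 table of FPKM values, made with Cufflinks, per the submitters' processing notes. No coordinates or sequences are printed, since the aligner, the genome build, the annotation and any use of strand are not stated in the sources used here. Per the labels' protocols, cDNA was amplified with a low-input SMARTer kit, and no molecular identifiers are named, so fragments may be copies of 1 molecule. Libraries of 1 group are biological replicates, per the labels. The numbers of the CEI-marker columns do not match the titles and serve only as names.

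Shares are percentages of the summed FPKM of all rows. Limma (3.58.1, R 4.3.3), 2-sided and with a trend of variance on mean, was run on log2(FPKM + 1) for the 13 libraries in 1 fit with 9 residual degrees of freedom and 5.28 prior ones, over genes at 1 FPKM or more in at least 3 libraries. Differences on this scale understate those of low genes. In a simulation of 21574 genes with 50 changed at each size, the comparison of QC-marker cells recovered 0, 13, 41 and 46 of the genes changed by 1, 2, 4 and 6 on the log2 scale, with 8 false calls. These counts hold only for the spread that was simulated. In the data the median SD over all genes was 0.26 in wox5-1 and 0.92 in wild-type QC-marker cells, so recovery there may differ. Depth was estimated from the steps of low FPKM values (30.7% to 44.7% came out whole within a tolerance of 0.1 fragments, beside 20% by chance) and entered no test. The step was itself chosen from these values, and the 20% does not allow for that choice. Fragment counts were not recovered, so no count model was run.

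The genes and lists were chosen with earlier results of these data known. The named genes were 16 identifiers taken from a textbook list, the 3 highest by mean in each functional list, up to 12 with the smallest adjusted p per comparison, and those leading a library's sum. Of the identifiers so picked, several are given only within ranges. ATCG00010, ATCG00030, ATCG00110, ATCG00570 and ATCG00730 and the neighbour pairs were singled out after their values were seen. The sources pair few identifiers with a product, so functional lists are not reported.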

Additional observations from a re-analysis of the deposited data

Results flagged for a closer look

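In the group of 4, wox5-1 QC-marker cells, the highest or lowest library of each named gene and of the chloroplast share was set against the rest with Dixon's ratio (the gap to the nearest value over the range, against its 95% critical value). Of 46 such sets 2 passed. Chance passes about 1 in 20 for independent sets of normal values, whereas these sets share the same libraries. ATCG00690 had 0, 0, 0 and 22.1 FPKM, a ratio of 1, with library 4 apart. Since its other libraries were tied at 0, this ratio would be the same for any value of library 4 above 0. ATCG00800 had 114, 81.7, 78.3 and 83.4 FPKM, a ratio of 0.857, with library 1 apart. The chloroplast share itself did not pass.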

How the results depend on the processing

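The count of chloroplast genes called in wox5-1 against wild-type QC-marker cells (main 11) was 5 with chloroplast rows scaled to the same sum, 5 without the filter, 7 without the mean-variance trend, 5 in a fit of the compared groups alone, 33 without wild-type QC-marker library 2 and wox5-1 CEI-marker library 1 (chosen after seeing the data), and 2 to 34 when single libraries were left out. With the replicate number as a block it was 0, as over all genes. The block terms left that fit few residual degrees of freedom, so this 0 does not show that differences were absent. Same-numbered libraries correlated at 0.069, 0.085 and -0.064, so the numbers were not taken to pair them, and no block was fitted elsewhere. Between populations in wox5-1 (main 35) the count was 1 with scaled rows, 22 without the filter, 71 in the compared groups alone, 19 at a pseudocount of 0.1, 55 after quantile normalization, 60 without the same 2 libraries, and 8 to 68 leaving out single libraries. The wild-type population count (0) was 0 to 1 and the difference of effects (0) 0 to 2 leaving out single libraries; the difference of effects was 1 after quantile normalization and 6 without the 2 libraries. The CEI-marker count was 0 throughout. Median-of-ratios and nuclear-sum scaling, the other pseudocount and a filter of 5 FPKM kept the counts within 1.5 times. Calls over all genes tested moved between settings too, as the shares given above for left-out libraries and for fits of the compared groups show. The movement of the counts between settings was therefore not particular to chloroplast genes, and its causes were not tested. In the main fits the QC-marker comparison called 11 of 87 chloroplast genes, beside 3.43% of all genes tested. The comparison of populations in wox5-1 called 35 of 87, beside 4.31%. With chloroplast rows scaled to the same sum these were 5 of 87 beside 3.32% and 1 of 87 beside 4.09%. The share of summed FPKM moved by less than 1 SD when nuclear rows alone were the denominator, without the leading gene and without genes at 0 in 6 or more libraries (added later); leaving out single libraries gave means of 0.258% to 0.399% in wox5-1 QC-marker, 1.08% to 1.86% in wild-type QC-marker, 2.15% to 2.97% in wox5-1 CEI-marker and 0.984% to 1.54% in wild-type CEI-marker cells. The share without ribosomal and transfer RNA genes was not run, since the sources pair no identifier with such a product.

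Scaling the chloroplast rows, which fixes their sum, turned 47 of 75 negative differences in QC-marker cells and 28 of 85 between populations in wox5-1. Of the genes followed, these reversed: in QC-marker cells ATCG00800 (0.15), ATCG00810 (0.31), ATCG00750 (0.60), ATCG00530 (0.97) and ATCG00430 (0.68), and between populations in wox5-1 ATCG00790 (0.23), ATCG01010 (0.082), ATCG00800 (1.27), ATCG00750 (0.70) and ATCG00670 (0.31). Scaled rows without wild-type QC-marker library 2 (chosen after seeing the data) gave counts of 2 in QC-marker cells and 9 between populations in wox5-1; there ATCG00800 (0.97), ATCG00810 (0.99), ATCG00790 (0.49), ATCG00470 (0.091) and ATCG00750 (0.82) reversed in QC-marker cells, and the same 5 as above between populations, with the same values. Without wild-type QC-marker library 1, ATCG00530 and ATCG00430 reversed in QC-marker cells (leaving out single libraries gave -2.91 to 0.23 and -1.59 to 0.17); without wox5-1 QC-marker library 1, ATCG00730 reversed between populations (-0.033 to 1.2). By the estimates above, depth limits the wild-type QC-marker group most.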
